A study of Homo sapiens with 1 sample.

Results

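The BMP pathway was followed through 10 genes of the 33538 in a single-cell count table: the ligands BMP2, BMP4 and BMP7, the secreted antagonist NOG, the target genes ID1, ID2, ID3 and ID4, and the inhibitory SMADs SMAD6 and SMAD7. They were chosen by symbol, each matched 1 row, and all 10 passed the minimum of 50 UMIs (unique molecular identifiers, 1 per captured transcript). The 1 library analysed, hHAR123, came from the human embryonic stem cell line H9 with a WT genotype, differentiated into neural progenitor cells. The medium held a pair of inhibitors: dorsomorphin at 1 µM, which blocks BMP type I receptors, and SB431542 at 10 µM, which blocks the receptors of TGF-β and activin. Both were given for 2 days to attached cells with 5 µM of a ROCK inhibitor and for 5 days to rotating spheres, and both were left out for the 7 days after replating, so the cells were collected in medium without them. The study pooled a pair of independent clones and spread them over wells of 10000 targeted cells each (20000 in all), but all barcodes carried 1 suffix, so neither clones nor wells can be told apart. The study's other genotypes are not used here. A single library gives no replicate and hence no test: each interval below is a 95% interval of counting error only.

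BMP ligands bind type I and type II serine/threonine kinase receptors, which phosphorylate SMAD1, SMAD5 and SMAD9, and these enter the nucleus with SMAD4. The ID genes, which encode proteins that bind basic helix-loop-helix transcription factors and keep them from DNA, are classical direct targets of that route, and SMAD6 and SMAD7 are feedback inhibitors induced by it. In the early embryo, blocking BMP signals lets ectoderm become neural, and noggin, the product of NOG, is one of the natural blockers; later, BMPs from the dorsal midline pattern the forebrain.

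Of 14726 barcodes, 13925 held 2000 to 10000 genes with under 10% of UMIs from MT- genes, and these had a median of 17900 UMIs. They were split by a contractile score, the UMIs of ANXA1, TFPI2 and CTGF per 10000 UMIs of a cell: 1584 cells (11.4%, interval 10.9 to 11.9%) scored 5 or more and are called contractile cells, and the other 12341 are called other cells. The score cuts a range, with 89 cells at 4 to under 5 and 72 at 5 to under 6. Contractile genes that the score did not use were higher in the contractile cells, all 8 of them, from 4.41-fold for ACTA2 to 10.4-fold for TAGLN, while 6 of 10 forebrain and neural progenitor markers were at least 2-fold lower, among them SOX2 at 0.284 and LHX2 at 0.169. NES (2.79) and VIM (4.76) of that list were higher, and it summed to 5583 CPM in contractile and 2901 CPM in other cells. Beside these counts, 7.83% of 20568 tested genes were at least 2-fold higher in contractile cells and 25.4% at least 2-fold lower. The classes differed in depth, with a median of 47217 UMIs in contractile cells and 16910 in other cells, so levels are given as CPM (counts per 1000000 UMIs of the class), and the ratios between the classes are given at matched depth too.

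Start-site sequence, 250 bases before to 50 after the start from RefSeq (GRCh38.p14), was at hand for 7 of the 10 genes: BMP4, ID1, ID2, ID3, ID4, SMAD6 and SMAD7. The windows of the 4 ID genes and SMAD6 are shown, because these genes are readouts of the pathway with 1 window each and moved differently from each other. BMP4 and SMAD7 had 3 windows each, which are given by their matches. The windows lie at chr20:31605039-31605338 for ID1, chr2:8681806-8682105 for ID2, chr1:23559452-23559751 on the minus strand for ID3, chr6:19837120-19837419 for ID4 and chr15:66701986-66702285 for SMAD6. Capitals mark matches on either strand to the SMAD palindrome GTCTAGAC, the GC-rich SMAD element GGCGCC or the SMAD box CAGAC, whose other strand reads GTCTG; the motifs do not contain one another.
ID1: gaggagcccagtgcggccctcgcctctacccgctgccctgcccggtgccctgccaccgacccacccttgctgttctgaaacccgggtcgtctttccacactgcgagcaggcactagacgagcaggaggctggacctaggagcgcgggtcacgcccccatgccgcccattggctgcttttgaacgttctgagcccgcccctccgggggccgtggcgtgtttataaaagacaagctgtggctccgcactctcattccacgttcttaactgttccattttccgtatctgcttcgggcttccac
ID2: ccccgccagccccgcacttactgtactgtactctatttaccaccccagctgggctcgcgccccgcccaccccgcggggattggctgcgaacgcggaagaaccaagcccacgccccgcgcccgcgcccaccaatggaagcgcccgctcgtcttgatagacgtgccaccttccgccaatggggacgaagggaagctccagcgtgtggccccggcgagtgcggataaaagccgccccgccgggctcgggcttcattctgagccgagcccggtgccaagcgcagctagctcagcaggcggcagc
ID3: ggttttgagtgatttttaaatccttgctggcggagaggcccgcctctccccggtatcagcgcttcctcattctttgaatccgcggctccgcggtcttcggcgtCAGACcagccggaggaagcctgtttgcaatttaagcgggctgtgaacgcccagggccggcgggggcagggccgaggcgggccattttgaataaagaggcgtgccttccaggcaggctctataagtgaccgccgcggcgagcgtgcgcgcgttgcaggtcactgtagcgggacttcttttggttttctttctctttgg
ID4: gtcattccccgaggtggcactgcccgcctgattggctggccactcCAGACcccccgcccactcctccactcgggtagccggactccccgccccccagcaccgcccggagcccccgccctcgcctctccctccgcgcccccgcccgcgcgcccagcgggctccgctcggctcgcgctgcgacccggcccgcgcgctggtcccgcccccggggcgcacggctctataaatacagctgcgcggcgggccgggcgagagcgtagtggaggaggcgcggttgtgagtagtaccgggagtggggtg
SMAD6: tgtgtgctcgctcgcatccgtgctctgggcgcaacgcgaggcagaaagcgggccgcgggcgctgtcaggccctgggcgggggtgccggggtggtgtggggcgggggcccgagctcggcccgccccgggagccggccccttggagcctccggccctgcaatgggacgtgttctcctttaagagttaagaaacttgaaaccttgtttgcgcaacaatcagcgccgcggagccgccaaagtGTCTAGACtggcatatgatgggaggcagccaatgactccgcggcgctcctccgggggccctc
SMAD6 held the full palindrome, starting 12 bases before its start site (offset -12), a match found in 71 of 35116 windows (0.202%). ID3 and ID4 each held 1 SMAD box, which 45.3% of all windows hold, and ID1 and ID2 held none of the 3 motifs within these letters. All 3 BMP4 windows and 2 of the 3 SMAD7 windows held a SMAD box. GGCGCC, found in 19.2% of windows, occurred in 1 of the 11 windows, with 2 matches in a BMP4 window. A match is a description of the letters and not of binding.

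Between the classes, 5 of the 10 genes were at least 2-fold higher in the contractile cells and 1 was at least 2-fold lower. Among 20568 genes tested, 7.83% were at least 2-fold higher and 25.4% at least 2-fold lower, with a median ratio of 0.760, whereas the 10 genes had a median ratio of 1.51. BMP4, BMP2, SMAD6, SMAD7 and ID1 were the higher ones, and ID2 was the lower one. BMP7, ID3 and ID4 lay within 10% of equality, which placed them above 63.6 to 71.1% of all tested genes, and NOG was at 0.588. Counted per cell, without regard to depth, the median ratio of all tested genes was 1.91, 46.6% of them were at least 2-fold higher and 4.86% lower, and of the 10 genes 8 were higher and none lower.

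**Figure D1:**
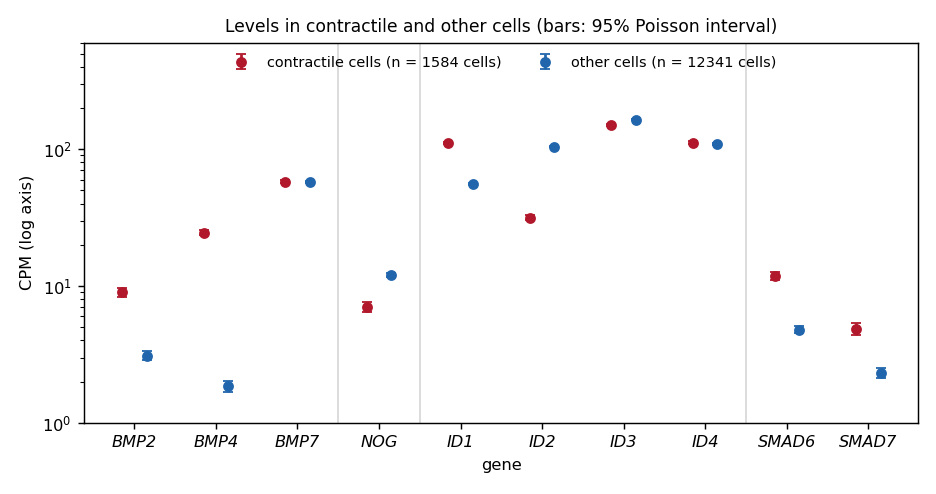
Level of each gene in CPM (vertical log axis) in contractile cells (red) and other cells (blue), with 95% Poisson intervals; grey lines separate ligands, antagonist, ID genes and inhibitory SMADs. BMP4 has the widest gap (24.6 against 1.85), ID2 is the only gene of the 10 past 2-fold in the other direction, and the symbols of BMP7, ID3 and ID4 nearly coincide.

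Among the ligands, BMP4 (chr14:53949736-53958761, minus strand), which drives ventral mesoderm and epidermis in the early embryo, had 1885 UMIs in the contractile cells and 440 in the others. This was 24.6 CPM against 1.85 CPM, a ratio of 13.3 (interval 12.0 to 14.8) and higher than that of 98.9% of all tested genes. The contractile cells, 24.4% of all UMIs, held 81.1% of the BMP4 UMIs. A BMP4 UMI was found in 44.8% of contractile cells (interval 42.3 to 47.2%) and in 2.39% of other cells (2.13 to 2.68%). At least 5 were found in 105 contractile cells and in 12 of the others. As a background for these shares, 1 of the 229 other cells with neuronal transcripts (at least 5 UMIs of STMN2, DCX, ELAVL4 and NHLH1 per 10000) had a BMP4 UMI, at a median depth of 12929 UMIs. Of all 259 cells with neuronal transcripts, the contractile ones included, 11 (4.25%) had a BMP4 UMI, at 9.02 CPM.

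BMP2 (chr20:6767686-6780246), a close relative of BMP4, stood at 9.03 CPM in contractile cells and 3.09 CPM in others, a ratio of 2.92 (2.63 to 3.24). It was spread unevenly among the contractile cells. The top 1% of them, 16 cells, held 39.7% of their BMP2 UMIs, whereas for NOG, with 543 UMIs against 693 for BMP2, the top 16 held 18.0%. Without the 11 contractile and 3 other cells that had 10 or more BMP2 UMIs the ratio was 2.15 (1.91 to 2.43). That limit was not scaled to depth and took 33.8% of the BMP2 UMIs from contractile and 9.38% from other cells, which lowers the ratio by itself. Most contractile cells had none: a BMP2 UMI was found in 15.3% of them and in 5.02% of others. In the contractile cells of 5 to under 10 on the score BMP2 reached 13.7 CPM, and it was 8.02 and 8.22 CPM in the ranges above. In that first range 1 cell held 35 of the 167 BMP2 UMIs. A BMP2 UMI was found in 10.6% of its cells, against 13.2% and 18.8% in the ranges above.

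BMP7 (chr20:57168753-57266641, minus strand), which forms homodimers and heterodimers with other BMPs, did not follow the other ligands. Its level was 57.9 CPM in contractile and 58.0 CPM in other cells, a ratio of 0.999 (0.966 to 1.03), which depended on depth: it was 1.65 (1.33 to 2.01) among cells of 10000 to under 20000 UMIs and 0.650 (0.605 to 0.697) at 40000 to under 60000. A BMP7 UMI was found in 83.2% of contractile and 53.8% of other cells, shares that include the difference in depth. After each cell was thinned to 5000 UMIs, all 3 ligands together were absent from 66.9% of contractile and 76.2% of other cells, and 2 of the 3 were seen together in 3.35% and 0.495%.

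NOG (chr17:56593699-56595611) was lower in the contractile cells, 7.08 against 12.0 CPM, a ratio of 0.588 (0.535 to 0.644) that did not reach 2-fold. Per cell the order turned, to 1.48. At 5000 UMIs a cell the ratio was 0.573 (0.430 to 0.750), from 57 and 775 UMIs. Its level declined over the score ranges, from 12.7 CPM at a score of 0 to 6.67 CPM at 20 or more, the opposite course to that of BMP4.

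The 4 ID genes gave 3 different patterns. ID1 (chr20:31605283-31606515) had 111 CPM in contractile and 55.4 CPM in other cells, a ratio of 2.01 (1.95 to 2.06) that lay at the limit of a call: it was 1.86 with a score of 10 or more, 1.91 with a score without CTGF and 1.96 without the quality filter. Without the 261 contractile and 186 other cells that had 10 or more ID1 UMIs the ratio was 1.33 (1.28 to 1.38). ID2 (chr2:8678845-8684461) had 31.6 against 104 CPM, a ratio of 0.303 (0.291 to 0.316). ID3 (chr1:23557926-23559501, minus strand) was at 150 against 164 CPM, a ratio of 0.915 (0.896 to 0.934), and ID4 (chr6:19837370-19842197) at 112 against 109 CPM, a ratio of 1.02 (0.997 to 1.05). With the same removal for each gene (412 contractile and 936 other cells for ID3, 287 and 364 for ID4) ID3 was at 0.592 and ID4 at 0.690. The limit of 10 UMIs was not scaled to the depth of a cell, and contractile cells were deeper. It took 58.2% of the ID1 UMIs from contractile and 22.9% from other cells. For ID3 these parts were 67.6% and 37.3%, and for ID4 54.4% and 19.3%. A removal that uneven lowers the ratios by itself, so no deficit of ID3 or ID4 is read from it. Before any removal ID1 and ID2, members of 1 family, moved in opposite directions between the same cells. The median contractile cell had 0.618 ID1 and 0.148 ID2 UMIs per 10000 where the median other cell had 0 and 0.790. ID2 was lower also per cell, at 0.761. The antisense gene ID2-AS1 was listed at 0.808 CPM in contractile and 1.19 CPM in other cells, and the part of antisense reads in the ID2 counts was not tested.

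ID1 lies in the same region of chromosome 20 as BCL2L1 (chr20:31664452-31723989, minus strand), which blocks apoptosis, and TPX2 (chr20:31739271-31801805), a spindle protein. Other genes of the region are not given here. BCL2L1 was also higher in contractile cells, 93.0 against 44.4 CPM, a ratio of 2.09 (2.03 to 2.16), and TPX2 was at 0.993 (0.977 to 1.01). The part of position in the ID1 result was not tested.

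Both inhibitory SMADs were higher in the contractile cells. SMAD6 (chr15:66702236-66782849), which mainly restrains BMP receptors, had 11.9 against 4.80 CPM, a ratio of 2.47 (2.27 to 2.70), with a UMI in 31.8% of contractile and 7.37% of other cells. SMAD7 (chr18:48919853-48950965, minus strand), which restrains BMP and TGF-β receptors, had 4.85 against 2.30 CPM, a ratio of 2.11 (1.84 to 2.41), from 372 and 547 UMIs. At 5000 UMIs a cell SMAD6 was at 2.91 (2.29 to 3.69) and SMAD7 at 1.62 (1.06 to 2.40), so the 2-fold call of SMAD7 was lost.

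The levels did not change in 1 step at the limit of the classes. ID1, ID3, ID4 and BMP7 were highest just below it, in the 477 cells of score 2 to under 5, and were lower in the highest range. The intervals of that range and of the next, 5 to under 10, overlapped for ID1, ID4 and BMP7 and not for ID3. ID3 went from 145 CPM at score 0 to 248 CPM (interval 240 to 256) at score 2 to under 5 and to 122 CPM (118 to 125) at 20 or more, so its near equality between the classes was the sum of a rise and a fall. ID1 went from 39.8 to 130 CPM and stayed at 109 CPM at the top. BMP7 went from 49.1 to 91.5 and back to 48.2 CPM, and ID4 from 105 to 148 and down to 88.5 CPM. SMAD6 was at 3.62 CPM at score 0, between 13.9 and 15.8 CPM from score 2 to under 20, and at 8.91 CPM at 20 or more.

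BMP4 and SMAD7 instead were highest in the highest range, and ID2 was lowest there. BMP4 was at 0.615, 1.81, 13.8, 20.8, 21.9 and 27.3 CPM over the 6 ranges, and neighbouring intervals overlapped only between 5 to under 10 and 10 to under 20. ID2 was at 111, 100.1, 67.1, 48.1, 35.7 and 24.3 CPM, with no overlap between neighbours. SMAD7 was at 2.06 CPM at score 0 and 5.61 CPM at 20 or more. The cells also became deeper along the ranges, from a median of 15756 to 53588 UMIs.

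**Figure D2:**
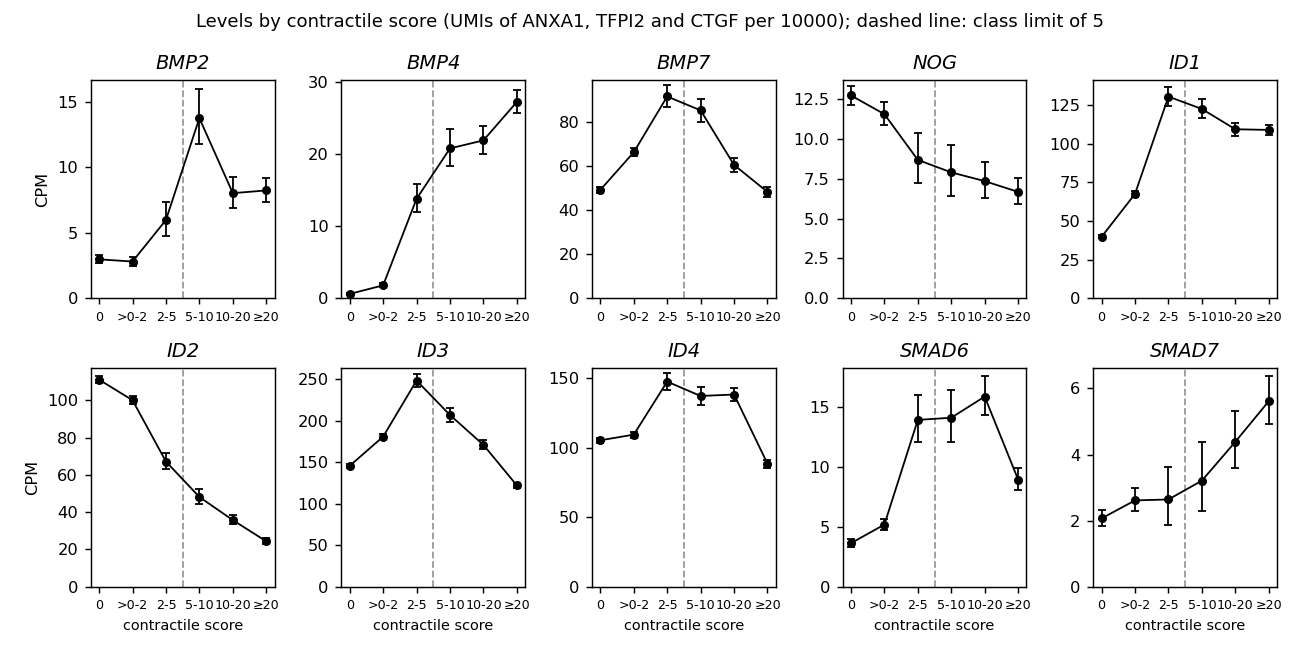
Level of each gene in CPM (vertical axes start at 0 and differ between panels) in 6 ranges of the contractile score, with 95% Poisson intervals and the class limit of 5 dashed. ID1, ID3, ID4 and BMP7 peak at 2 to under 5, BMP4 and SMAD7 climb to the last range, and ID2 and NOG are lowest there.

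At matched depth the gap narrowed with depth for BMP4, ID1 and SMAD6, while the ratio rose for BMP2 and SMAD7 from below 1 to above it. The 4 bands held 86, 153, 287 and 557 contractile and 7344, 2990, 843 and 396 other cells. Cells under 10000 UMIs and cells of 60000 or more lay in no band. The deepest quartile of contractile cells had a median of 73065 UMIs. For ID1 the ratio was 2.63 among cells of 10000 to under 20000 UMIs, 2.06 at 20000 to under 30000, 1.55 at 30000 to under 40000 and 1.13 (1.07 to 1.20) at 40000 to under 60000. SMAD6 went from 3.19 over 2.28 and 1.71 to 1.42 (1.18 to 1.72), and BMP4 from 33.8 over 19.0 and 5.47 to 5.26 (4.22 to 6.63). ID2 was lower in all 4 bands, at 0.309 (0.227 to 0.411), 0.501 (0.432 to 0.577), 0.373 and 0.420, the second of these just short of 2-fold lower. BMP2 was at 0.250 with 1 contractile UMI, 1.14, 1.41 and 3.997 (2.96 to 5.49), and SMAD7 at 0.717, 0.847, 1.40 and 2.17 (1.51 to 3.18). For BMP2 and SMAD7 the intervals of the first 3 bands included equality, and only the last band was past 2-fold higher, while BMP2 in the first band was past 2-fold lower from that 1 UMI. BMP7 went from 1.65 over 1.11 and 0.907 to 0.650, and ID3 from 1.26 (1.10 to 1.43) over 1.15 and 0.933 to 0.751 (0.719 to 0.785), so both were higher in contractile cells in the first band and lower in the last 2. ID4 was at 1.19, 1.90 (1.76 to 2.05), 1.496 and 1.06. NOG was at 0.297 (0.0964 to 0.696), 0.546, 0.542 and 0.848 (0.699 to 1.03), lower in the first 3 bands and not told from equality in the last. Of all tested genes that had a UMI in the band 8.39%, 7.95%, 7.66% and 8.04% were at least 2-fold higher from the first band to the last and 36.4%, 23.0%, 20.8% and 20.3% at least 2-fold lower, where of the 10 members 3, 3, 1 and 3 were higher and 3, 0, 1 and 1 lower. Thinning to 5000 UMIs, which matches counts but keeps the same cells, left ID1 at 2.47 (2.29 to 2.66) and BMP4 at 24.0 against 1.20 CPM.

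The narrowing of the ID1 gap came with a rise among the other cells. From the shallowest to the deepest depth quartile of other cells ID1 went from 29.7 to 77.7 CPM, SMAD6 from 2.43 to 6.96, BMP7 from 38.4 to 72.3, ID3 from 124 to 198 and BMP4 from 0.555 to 3.57 CPM. In the contractile cells ID1 went from 127 to 104 CPM over its own depth quartiles, ID3 from 197 to 123 and ID4 from 171 to 83.0 CPM. The part of depth in these levels was not tested.

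**Figure D3:**
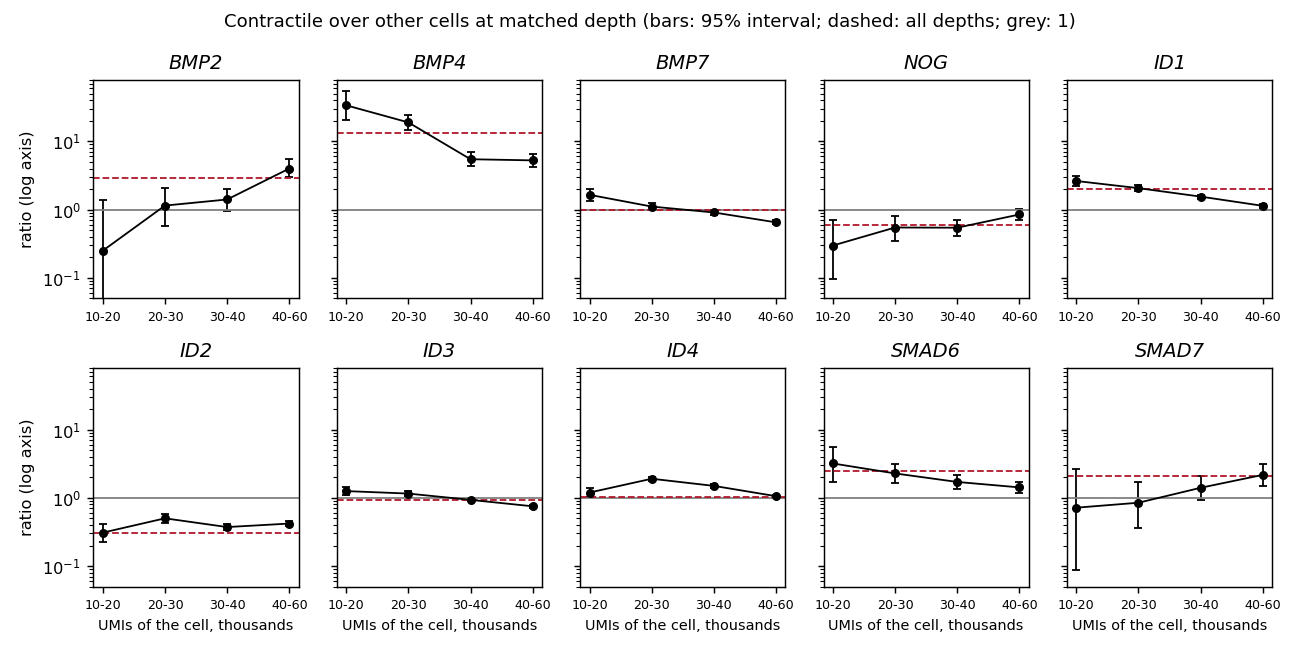
Ratio of levels, contractile over other cells (log axis), within 4 bands of UMIs per cell, with 95% intervals; the red dashed line is the ratio over all depths and the grey line is 1. The ratio of ID1 falls from 2.63 to 1.13 and that of BMP4 from 33.8 to 5.26, ID2 stays between 0.309 and 0.501, and BMP2 reaches 3.997 only in the last band.

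Splitting both classes by proliferation moved some of the ratios. Cells were split at 3 UMIs of MKI67, TOP2A, CENPF and UBE2C per 10000. Between contractile and other cells above that limit ID1 was at 1.95, short of 2-fold, and below it at 2.14, ID2 at 0.317 and 0.272, BMP4 at 13.6 and 12.4, and SMAD6 at 2.45 and 2.50. NOG was at 0.662 above and at 0.385 (0.307 to 0.477) below the limit, the latter past 2-fold lower. SMAD7 was at 1.98, short of 2-fold, above the limit and at 2.49 below it.

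The second comparison asked what accompanies BMP4 in the same cell. A BMP4 UMI was found in 1004 cells (7.21%), of which 709 were contractile. Over all cells, SMAD6 was the 1 gene of the other 9 that was at least 2-fold higher in cells with a BMP4 UMI, where 5.53% of 20570 tested genes were, and ID2 was the 1 gene at least 2-fold lower, where 18.8% were. SMAD6 was at 14.1 against 5.16 CPM, a ratio of 2.74 (2.50 to 3.01). ID1 just missed 2-fold at 1.96 (1.90 to 2.02), and ID2 was at 0.435 (0.415 to 0.455). Counted per cell, 7 of the 9 were at least 2-fold higher and 0 lower, where 44.7% of tested genes were higher and 2.76% lower. As most cells with a BMP4 UMI were contractile, these values repeat in part the first comparison, and the split was repeated within each class.

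Within the contractile cells none of the 9 genes passed 2-fold in either direction, where 2.03% of tested genes were higher and 4.05% lower. SMAD6 had the largest ratio, 14.3 against 9.44 CPM or 1.52 (1.32 to 1.74), followed by NOG at 1.26 (1.06 to 1.50) and ID1 at 1.12 (1.07 to 1.17). BMP2, BMP7, ID2, ID3, ID4 and SMAD7 lay between 0.899 and 1.07. Cells with a BMP4 UMI were deeper here, with medians of 52712 and 42289 UMIs, and among cells thinned to 5000 UMIs, of which 155 kept a BMP4 UMI, SMAD6 was at 0.930 (0.412 to 1.85) from 9 UMIs, an interval too wide to tell. At matched depth SMAD6 was at 0.468 from 1 UMI and at 1.25 in the first 2 bands, at 2.07 (1.45 to 2.97) among contractile cells of 30000 to under 40000 UMIs and at 1.52 (1.23 to 1.89) at 40000 to under 60000. ID1 was at 1.42, 1.41 and 1.39 in the first 3 bands and 1.12 in the last, and BMP2 was at 0.582 (0.456 to 0.740) in the last. ID2 was at 1.33, 1.05, 1.31 (1.05 to 1.62) and 1.18 (1.04 to 1.35) from the first band to the last. NOG was at 1.40, 1.66, 1.30 and 1.30 (1.005 to 1.70). The intervals included equality in the first 2 bands for ID2 and in the first 3 bands for NOG. ID3 was past 2-fold lower in the first band, at 0.446 (0.255 to 0.731) from 17 UMIs, and between 1.11 and 1.25 in the others.

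Within the other cells the 295 with a BMP4 UMI differed more. SMAD6 was at 13.5 against 4.44 CPM, a ratio of 3.03 (2.51 to 3.65), and ID1 at 121 against 52.7 CPM, a ratio of 2.29 (2.15 to 2.43). These were the 2 genes past 2-fold, where 4.36% of tested genes were higher and 10.6% lower. BMP7 followed at 1.69 (1.58 to 1.80), ID3 at 1.63 (1.57 to 1.70) and ID4 at 1.23 (1.17 to 1.31). ID2 was at 0.719 (0.667 to 0.774), NOG at 0.685 (0.541 to 0.855) and BMP2 at 0.598 (0.352 to 0.952) from 18 UMIs, while SMAD7 was at 1.05 (0.658 to 1.59). Among cells thinned to 5000 UMIs SMAD6 was at 2.18 (0.447 to 6.45) from 3 UMIs, an interval that includes equality, and ID1 at 2.02 (1.37 to 2.88).

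The same cells also carried more of the contractile transcripts. TAGLN was at 2096 CPM in other cells with a BMP4 UMI and 374 CPM in those without, a ratio of 5.61, and HES5, a Notch target of neural progenitors, was at 0.295. They were deeper, with medians of 28472 and 16769 UMIs, and 98 of them scored 2 to under 5. In the 197 that scored under 2, set against 11667 cells of that score without a BMP4 UMI, ID1 was at 2.28 (2.10 to 2.47), SMAD6 at 2.47 (1.85 to 3.23), ID3 at 1.62 and BMP7 at 1.65, and TAGLN still at 4.81. BMP2 was past 2-fold lower there, at 0.425 (0.170 to 0.881) from 7 UMIs, and ID2 was at 0.834 (0.761 to 0.911). Among cells of score 2 to under 5 ID1 was at 1.03 (0.926 to 1.14) and SMAD6 at 1.50 (1.11 to 2.01). The part of depth and of the contractile transcripts in these ratios was not tested.

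**Figure D4:**
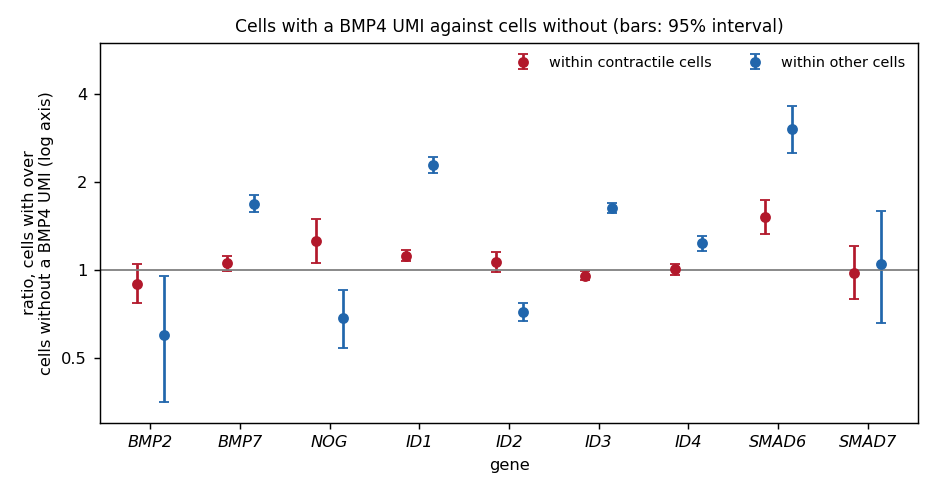
Ratio of levels (log axis), cells with over cells without a BMP4 UMI, within contractile cells (red) and within other cells (blue), with 95% intervals; BMP4, which made the split, is not shown. The red symbols lie between 0.899 and 1.52, while in blue SMAD6 (3.03) and ID1 (2.29) pass 2.

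Among themselves, the ID genes had their highest correlation in the pair ID1 and ID3, in both classes. Among the 12316 other cells thinned to 5000 UMIs both were seen in 1323, where the product of their shares gives 873, and Pearson's r of their log counts was 0.258. In the 1581 thinned contractile cells both were seen in 295, where the product gives 226, with r of 0.270. ID1 and ID2 were seen together in 103 of these, where the product gives 73.6, a larger excess by that measure, with r of 0.157. ID3 was the gene with the highest r to ID1 in both classes. All cells share 1 library, and these are descriptions over cells. ID2 and ID4 went the other way in other cells, with 1466 cells against a product of 1654.

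After that pair, the genes with the highest r to each ID gene were read in each class. In the other cells ID1 was next nearest to TAGLN (r of 0.198), TPM1 (0.183) and MYL9 (0.163), all of the actin cytoskeleton, and ID3 to TMSB4X (0.180), ACTB (0.179) and TAGLN (0.174). ID4, which is known from neural stem cells, was nearest to HES5 (0.265), CREB5 (0.231) and C1orf61 (0.211), a group with no contractile gene. ID2 was nearest to SMOC1 (0.0978) and SIX3 (0.0741) in the other cells. In contractile cells ID4 was nearest to DLK1 (0.223), a Notch-related membrane protein, and ID2 was nearest to ID1 (0.157). There ID1 was next nearest to NEBL (0.158), ID2 (0.157) and ID4 (0.152), and ID3 to NEBL (0.159), FZD5 (0.153) and ID4 (0.145). TAGLN, TPM1 and MYL9 were not among the 5 highest for ID1 in contractile cells. No gene had an r above 0.115 with BMP4 in either class, which is too weak to read at this depth. BMP2 and BMP4 were never seen together among the other cells at 5000 UMIs (185 and 65 cells), where the product of shares gives under 1 cell.

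Among the other cells the levels also varied with regional genes. Cells with a UMI of EMX2, a gene of the dorsal forebrain, had 0.290 times the BMP4 level of those without (0.233 to 0.358), 0.620 times the ID1 level (0.599 to 0.642) and 0.713 times the ID3 level, but 1.36 times the ID4 level (1.33 to 1.40) and 1.56 times the BMP2 level (1.33 to 1.82). NOG stood apart in the 214 cells with a UMI of NKX2-1, a gene of the ventral forebrain and hypothalamus, at 23.4 against 11.8 CPM (ratio 1.98, 1.61 to 2.41), from 102 UMIs. In cells with a UMI of RAX, of eye field and hypothalamus, ID1 was at 1.16 (1.09 to 1.22) and ID4 at 0.818 (0.779 to 0.858). In the 379 cells with a UMI of PAX3, of the dorsal neural tube, ID3 was at 1.22 (1.17 to 1.29) and BMP4 at 0.246, from 4 UMIs. Cells with a UMI of each regional gene were deeper than those without. The medians were 17316.5 against 16474 UMIs for EMX2 and 17909.5 against 16893 for NKX2-1. They were 20190 against 16682.5 for RAX and 19976 against 16806.5 for PAX3. The part of depth in these ratios was not tested.

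The 229 other cells with neuronal transcripts had less of ID1, ID3 and SMAD6 but not of ID4. ID1 was at 0.285 (0.213 to 0.374), ID3 at 0.307 (0.262 to 0.357) and SMAD6 at 0.317 (0.103 to 0.741, from 5 UMIs) of the level in the remaining other cells. BMP7 was at 0.426 (0.338 to 0.529) and ID2 at 0.845 (0.750 to 0.949), while ID4 was at 0.999 (0.898 to 1.11).

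A list of 82 other genes of the BMP and TGF-β pathways was read in the same way, of which 73 reached 50 UMIs. That minimum was counted over both classes together. Of the genes past 2-fold, INHBA, INHBE and CER1 passed it only through the contractile cells, where they were higher. INHA, NODAL, GDF10, CHRD, CHRDL2, DLX3 and TFAP2A passed it only through the other cells, where they were higher. These genes are part of the counts below. Between contractile and other cells 27 were at least 2-fold higher and 14 at least 2-fold lower, with a median ratio of 1.12. Over all tested genes 7.83% were higher and 25.4% lower, with a median of 0.760. Of the ligands of the TGF-β and activin kind, TGFB2 was at 199 against 8.02 CPM (ratio 24.8), TGFB1 at 42.5 against 8.53 CPM (4.99), TGFB3 at 6.28 against 1.34 CPM (4.69), and INHBA, a subunit of activin A, at 2.95 against 0.0714 CPM (41.2). Of further BMP-type ligands GDF6 (10.6) and BMP6 (9.72) were higher. GDF15 (11.5), INHBE, LEFTY2, BMP8A and GDF7 were higher too, to make 11 of the 19 genes listed under ligands. That list was not limited to ligands that activate BMP or TGF-β receptors. GDF11, which acts through activin-type receptors, was lower at 36.9 against 91.8 CPM (0.402), with GDF10, INHA and NODAL lower at under 1 CPM. BMP1, at 1.55, did not pass 2-fold.

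Receptors and SMADs came next. BMPR1A, a type I receptor of BMP2 and BMP4, was at 144 against 347 CPM (0.416), and the co-receptor RGMA at 0.190, while RGMB (2.24) and TGFBR2 (2.06), the type II receptor of TGF-β, were higher. BMPR1B (1.03), BMPR2 (1.18), ACVR2B (0.525), NEO1 (0.505) and TGFBR1 (0.704) did not pass 2-fold. In all 2 of 15 receptors were higher and 2 lower, where 7.83% of all tested genes were higher and 25.4% lower. Of the 12 SMADs and cofactors, SMAD9 (0.465) and ZNF423 (0.391), a zinc finger partner of BMP-activated SMADs, were lower and SKIL (2.29), a repressor of SMAD activity, was higher. SMAD1 was at 0.562, SMAD5 at 0.918, SMAD2 at 0.785, SMAD3 at 1.23 and SKI at 0.716.

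The antagonists held the largest ratio of the list, GREM1 (gremlin), which binds BMP2, BMP4 and BMP7, at 160 against 1.60 CPM (99.8, interval 90.1 to 111). CER1 (38.9), FST (7.52), which binds activin, BAMBI (6.28), BMPER (4.61) and FSTL1 (2.42) were higher too, 6 of 14, whereas CHRD, CHRDL1 and CHRDL2, of the chordin family, were lower, 3 of 14. TWSG1, at 0.919, did not pass 2-fold. Of all tested genes 7.83% were higher and 25.4% lower in this comparison. Among 13 target genes 7 were higher and 3 lower, the higher ones led by GATA3 at 8.97 against 0.223 CPM (40.3), COL1A1 (25.04) and the contractile gene TAGLN, followed by LTBP2 (9.05), PMEPA1 (5.59), MSX2 (3.84) and HEY1 (2.81). COL1A1, PMEPA1 and LTBP2 are best known as targets of TGF-β, and GATA3 and MSX2 as targets of BMP. DLX3 (0.179), TFAP2A (0.170) and ATOH8 (0.472) were the lower ones, and DLX5, at 1.60, did not pass 2-fold. Within contractile cells, CHRD, at 5.93 with an interval of 0.719 to 273, was the 1 gene of the 73 past 2-fold higher in cells with a BMP4 UMI, and ENG, at 0.418 (0.186 to 0.876), the 1 past 2-fold lower, where 2.03% of all tested genes were higher and 4.05% lower. Within other cells 17 were higher and 9 lower in cells with a BMP4 UMI, 8 of the 17 being target genes, where 4.36% of all tested genes were higher and 10.6% lower.

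**Figure D5:**
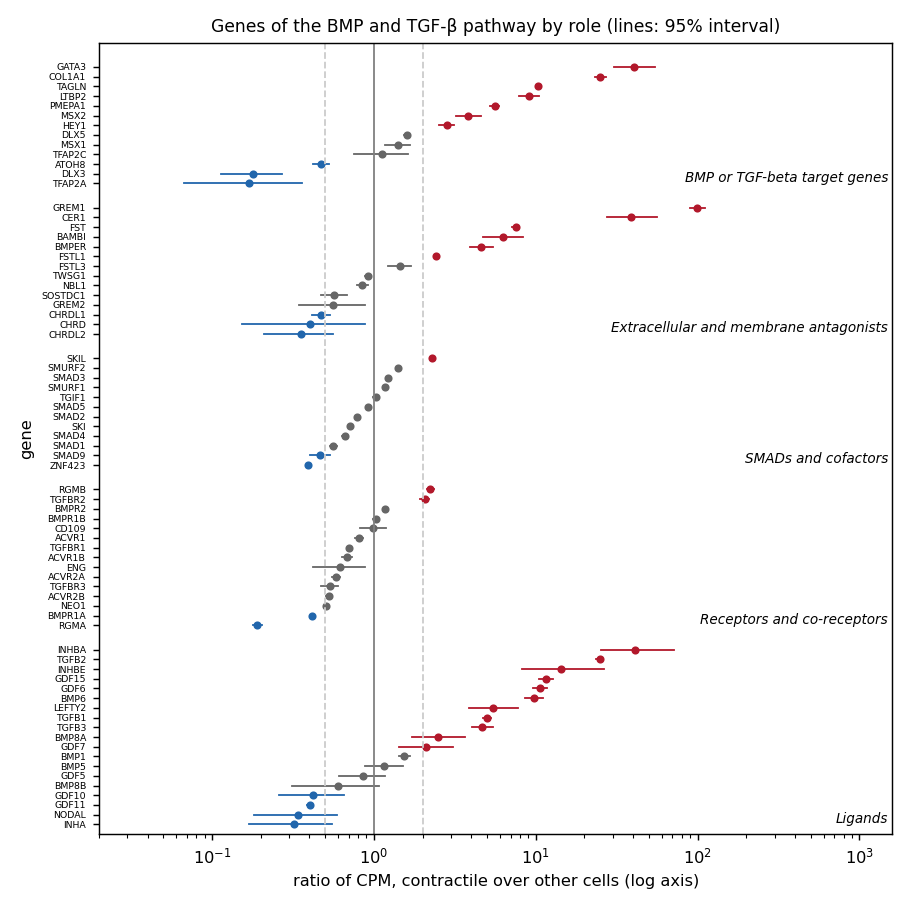
Ratio of levels, contractile over other cells (log axis), for the 73 genes of the pathway list by role, with 95% intervals; red marks ratios of 2 or more, blue 0.5 or less, and dashed lines stand at 0.5 and 2. The ligands, antagonists and target genes spread widely, with GREM1 at 99.8 and GATA3 at 40.3, while the receptors and SMADs lie between 0.190 and 2.29.

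Markers of other tissues were read beside these values. The 8 surface ectoderm or amnion markers summed to 15.6 CPM in contractile and 6.42 CPM in other cells, and from 0 to 2.30 and from 0 to 6.47 UMIs per 10000 in single cells. Among them GATA3 and ISL1 (1.96 against 0.0925 CPM) were higher in contractile cells, but KRT5 was listed at 0, KRT14 and GABRP were at 0 in contractile cells, TFAP2A was lower and TP63 was at 0.691 against 0.786 CPM. Of the 3 endothelial markers CDH5 was higher (2.44 against 0.551 CPM), PECAM1 was at 0.892 and KDR at 1.10, and the list summed to 19.4 and 16.1 CPM. None of the 4 mesodermal markers was at least 2-fold higher; HAND1 was listed at 0 and TBXT was at 0 in contractile cells. GATA6 (3.56 against 0.164 CPM) and TWIST1 (3.05 against 0.206 CPM) were higher, and SOX17, FOXA2 and FOXD3 were at 0 or below 0.1 CPM in contractile cells. The 7 crest or mesenchyme markers summed to 19.0 and 11.3 CPM, with LUM and TWIST1 the 2 that were higher. SOX10 was lower (0.261 against 0.778 CPM) and DCN was at 0 in contractile cells, while PRRX1 (1.07) and PDGFRA (1.03) were near equality. The 6 roof plate or choroid plexus markers summed to 7.40 and 13.4 CPM, most of it from RSPO3 (6.13 against 4.74 CPM) in contractile cells and from OTX1 (0.587 against 6.71 CPM) and RSPO3 in other cells. TTR was at 0.0652 against 0.0126 CPM from 8 UMIs in all, LMX1A at 0.0391 against 0.635 CPM, RSPO2 at 0.587 against 1.17 CPM, and WNT3A at 0 in contractile cells. The part of other cell types in the results was not tested.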

How the data were processed

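Single-cell RNA of 1 library was captured with 10x 3′ HT v3.1 chemistry. The authors aligned and counted reads with Cell Ranger 7.0.1 against GRCh38 and used Seurat 4.4.0, per the labels, with default settings per the study's methods; the annotation version is not given in the sources used here. The deposited values are raw UMI counts per gene and barcode, 327640709 in all. The labels give 1 group, so cells were compared by rules on their counts, with no p-value.

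Barcodes with 2000 to 10000 genes and under 10% MT- UMIs were kept (13925 of 14726). UMIs were summed over cells and divided by the summed total (CPM), and a call is a ratio of at least 2 or at most 0.5. The genes of the contractile score were left out of the tested genes, which needed 50 UMIs over all kept cells. Intervals (95%) are exact Poisson for levels, exact conditional for ratios and Clopper-Pearson for shares, and cover counting error only. Thinning drew 5000 UMIs per cell without replacement, leaving out 3 contractile and 25 other cells. Scrublet (scanpy 1.11.5) called 1 barcode at its own threshold, so it has not worked here, and doublets were kept; an alternative removed the highest 8% of scores. Kept cells held 3167 to 118188 UMIs.

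The 10 genes always, pathway genes past 2-fold or with the most UMIs in their role (up to 4), and genes from the 5 highest correlations were named. A gene of the pathway list is not reported here and is left out of its counts. The genes, classes and lists were chosen with earlier results of these data known. CHRD, INHA and similar genes at under 1 CPM rest on few UMIs. Alternatives: scaling, thinning, score limits of 3 and 10, a score without CTGF, at least 2 BMP4 UMIs, each class alone, no filter and no minimum. Depth bands and the split below score 2 were chosen after seeing the data.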

Additional observations from a re-analysis of the deposited data

Results flagged for a closer look

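The 94 barcodes with more than 10000 genes were left out of all comparisons, and the 10 genes gave counts there above the 3 that a count of 0 allows (0.305 CPM), which is why they are listed. These barcodes had a median of 103907 UMIs, and 80 of them scored 5 or more on the contractile score. BMP2 was at 4.88 CPM, BMP4 at 18.8, BMP7 at 66.4 and NOG at 7.11 CPM. ID1 was at 91.3 CPM, ID2 at 41.0, ID3 at 113 and ID4 at 76.4 CPM, and SMAD6 was at 10.5 and SMAD7 at 6.20 CPM.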

How the results depend on the processing

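BMP4, ID1, SMAD6 and ID2 kept their side of equality between contractile and other cells under all 13 alternatives. Their ranges were 5.26 to 33.8, 1.13 to 5.04, 1.42 to 6.22 and 0.281 to 0.761. NOG lost its side only per cell, at 1.48. The alternative without a minimum count could not change a ratio. Counting per cell could only raise the ratios above 1 further, because contractile cells were deeper. The count of genes at least 2-fold higher was 5, with 1 lower. It was 4 by the mean of per-cell CPM and after thinning, where SMAD7 fell to 1.92 and 1.62, and with a score of 10 or more, a score without CTGF and no quality filter, where ID1 fell to 1.86, 1.91 and 1.96. Per cell it was 8, with 0 lower, where 46.6% of all tested genes were higher and 4.86% lower and their median ratio moved from 0.760 to 1.91. Within depth bands it was 3 (3 lower), 3 (0 lower), 1 (1 lower) and 3 (1 lower) from the shallowest band to the deepest, where 7.66 to 8.39% of all tested genes were higher and 20.3 to 36.4% lower, BMP2 reversing to 0.250 and SMAD7 to 0.717 in the first and SMAD7 to 0.847 in the second. With and without a BMP4 UMI the count was 1 higher and 1 lower. It was 2 higher by the mean of per-cell CPM, with at least 2 BMP4 UMIs, and in cells of score under 2. It was 7 and 0 per cell, where 44.7% of all tested genes were higher and 2.76% lower. It was 4 and 2 after thinning, 0 and 0 within contractile cells, and 2 and 0 within other cells. The thinned count rests on 220 cells with a BMP4 UMI. These held 10 UMIs of BMP2, 12 of SMAD6, 6 each of SMAD7 and NOG, 135 of ID1 and 54 of ID2. SMAD7 was at 2.14 after thinning, with an interval of 0.776 to 4.76. Shares over all tested genes were computed only for the main settings, per cell, in depth bands and within each class. In the BMP4 split ID2 reversed to 1.01 per cell and 1.07 within contractile cells. Values that were not called crossed equality too: BMP2 (1.78) at 0.899 within contractile cells, 0.598 within other cells and 0.425 in cells of score under 2, NOG (0.702) at 1.63 per cell and 1.26 within contractile cells, SMAD7 (1.62) at 0.978 within contractile cells and 0.943 in cells of score under 2, and ID3 in 2 of 10 alternatives, down to 0.956. The cause was not tested in any of these. No paired analysis was possible because there was 1 library. In the shallowest band BMP2 and SMAD7 rest on 1 and 2 contractile UMIs.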
